A study of Mus musculus with 2 samples.

Results

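The genes described here build cholesterol and fatty acids, and they were compared in mouse retina at postnatal day 15 (P15), with and without a Cre-driven deletion of the DNA methyltransferases. There were 2 RNA sequencing libraries, 1 per group. The control library came from pups homozygous for loxP-flanked (floxed) alleles of Dnmt1, Dnmt3a and Dnmt3b that were negative for Rx-Cre. The triple mutant library came from pups with the same floxed alleles that were positive for Rx-Cre, a transgene that expresses Cre recombinase from regulatory sequence of Rx, a gene of the early eye field. The strain labels read C57BL/6 (control) and C57BL/7 (mutant), and the labels state neither how many animals were pooled nor their sex. With 1 library per group there was no replicate, so all differences given here are between 2 libraries, and genotypes were not tested. The members were 30 named genes. By their exact symbol 29 were found in the deposited data, and Msmo1 was found through its RefSeq accession under the older symbol Sc4mol. All 30 were among the 13280 genes measured, meaning at least 1 FPKM (fragments counted relative to transcript length and to sequencing depth) in at least 1 library, out of 23356 symbols in the table.

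Cholesterol is built from acetyl-CoA through mevalonate, the isoprenoid farnesyl diphosphate, squalene and lanosterol. When sterols in the endoplasmic reticulum are low, the escort protein SCAP carries the transcription factor precursors SREBP1 and SREBP2 to the Golgi, where proteases release them to activate genes of sterol and fatty acid synthesis; when sterols are high, INSIG proteins hold SCAP back. Fatty acids are built from the same acetyl-CoA and are then lengthened by ELOVL enzymes and desaturated by SCD and FADS enzymes. The retina is known for its very long and polyunsaturated chains, among them docosahexaenoic acid in photoreceptor outer segments, and Mueller glia are regarded as a main site of its sterol synthesis.

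Promoter sequence was examined for the members, because SREBPs work together with the factors NF-Y and Sp1 at many genes of this pathway. RefSeq's promoter table (GRCm38.p6, 250 bases before to 50 bases after a transcription start) held 33 promoters of 24 members. The motif TCACNCCA, an SREBP element, was found on either strand in 3 member promoters, those of Hmgcs1, Msmo1 and Srebf2, or 9.09% against 4.36% of all 32851 promoters in the table. Insig1, a strongly sterol-regulated gene with no such match, was added because its mutant to control ratio was the lowest among the sterol sensing genes. The following windows of 90 bases show parts of the 3 promoters with a match and, for comparison, of that of Insig1. They are written 5′ to 3′ on the strand of the gene, and capitals mark matches to TCACNCCA and to the NF-Y motif CCAAT, in either orientation.

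Hmgcs1, chr13:119690173-119690262, plus strand: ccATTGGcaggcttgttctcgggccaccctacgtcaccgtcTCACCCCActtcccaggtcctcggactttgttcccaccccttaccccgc

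Msmo1, chr8:64733707-64733796, minus strand: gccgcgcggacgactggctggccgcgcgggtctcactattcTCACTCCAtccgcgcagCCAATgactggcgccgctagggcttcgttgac

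Srebf2, chr15:82147066-82147155, plus strand: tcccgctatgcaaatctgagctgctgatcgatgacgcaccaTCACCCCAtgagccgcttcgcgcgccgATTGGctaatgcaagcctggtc

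Insig1, chr5:28071162-28071251, plus strand: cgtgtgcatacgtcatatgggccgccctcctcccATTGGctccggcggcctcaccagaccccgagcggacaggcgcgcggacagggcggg

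The SREBP match lay 137 bases before the RefSeq start in Hmgcs1, 177 in Msmo1 and 162 in Srebf2. In the GENCODE annotation, Msmo1 begins further upstream, at 64733792 on the minus strand. The match, at 64733748 to 64733755, lies inside that gene. The NF-Y motif CCAAT, whose first letters can overlap the end of TCACNCCA, was present in at least 1 promoter of all 11 sterol synthesis members that the table covered. It was found in 11 of their 14 promoters (78.6%) and in 21 of all 33 member promoters (63.6%), against 37.4% of all promoters. It was in 5 of 10 sterol sensing promoters, 2 of 3 for fatty acid synthesis and 2 of 5 for elongation and desaturation. The Mfsd2b promoter held it too. Counted by gene, 11096 of all 27025 genes had it in at least 1 promoter. The Sp1 motif GGGCGG was present in 24 of the 33 member promoters (72.7%), against 35.7% of all. Promoters rich in CpG, the dinucleotide that the deleted enzymes methylate, made up 22 of 33 (66.7%) against 33.5% of all, where rich means a CpG count of at least 0.6 of that expected from base composition and a GC content of at least 50%. Member promoters had a median of 21 CpGs and 62.7% GC, against 7 and 52.7% over all promoters, so the GC-rich Sp1 motif and the CpG measure are not separate from base composition. A match is a description of these letters and not evidence of binding.

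The targeted genes were lower in the mutant library, which checks the labels. Dnmt1 had 21.7 FPKM in control retina and 11.6 in mutant retina, Dnmt3a 87.4 and 56.0, and Dnmt3b 1.03 and 0.827. A level of 1 FPKM corresponded to about 48.7 (control) and 56.0 (mutant) fragments for each kb of transcript, as estimated from the spacing of low values. Between 188 and 27925 control fragments and between 131 and 34463 mutant fragments lay behind a member's value. Intervals in brackets are 95% intervals of the mutant to control ratio; they cover counting error only and neither animals nor library preparation.

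Across all 30 members, differences between the libraries were small. Ratios were expressed as log2 of (mutant FPKM + 1) over (control FPKM + 1), which shrinks the ratios of low genes. No member had a log2 ratio of at least 1, where 1.84% of measured genes did, and no member had one of at most -1, where 0.648% did. At a smaller size of 0.5, 1 member was higher in the mutant, Pmvk (5.37% of measured genes), and 1 was lower, Scd1 (4.74% of measured genes). These shares are close to those of all genes. The members' median absolute log2 ratio was 0.14, against 0.15 over all measured genes. In the authors' deposited table, 0 of the 35 member transcripts with a completed test were called significant, against 0.353% of all such transcripts. Counting error was not the limit for the well-expressed members: the interval lay wholly below 1 for 12 members (34.7% of measured genes) and wholly above 1 for 8 (33.0% of measured genes), shares of members close to or below those of all genes.

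**Figure D1:**
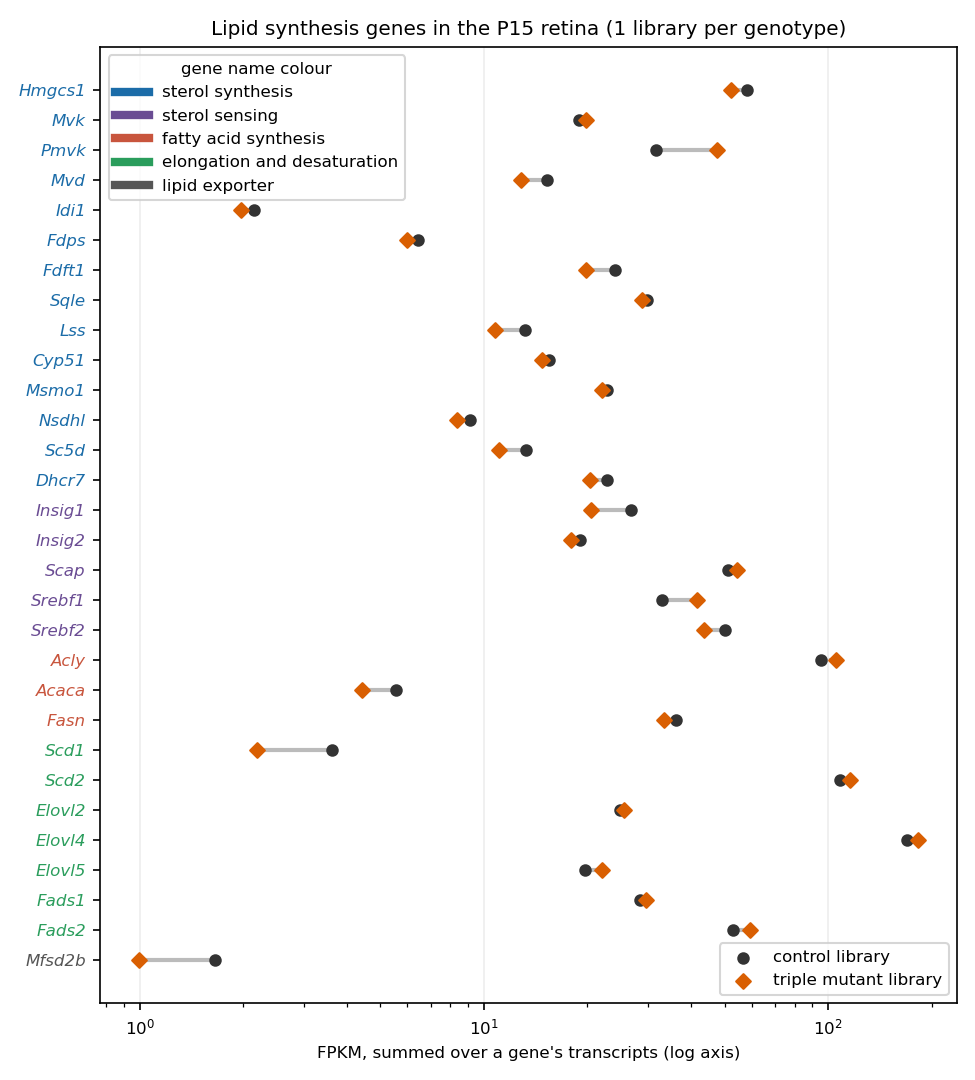
FPKM of each member (horizontal log axis, transcripts summed) in the control library (dark circles) and the triple mutant library (orange diamonds), with gene names coloured by class. The levels span from 1.65 FPKM for Mfsd2b to 169 for Elovl4 in the control, and most pairs of points nearly touch, with Pmvk, Srebf1, Insig1, Scd1 and Mfsd2b the most separated.

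The sterol synthesis enzymes were mostly slightly lower in the mutant library. Of 14 members, 12 had a log2 ratio below 0, where 50% of all measured genes did, with a class median of -0.10 and a range from -0.27 to 0.57. Their FPKM summed to 283 in control and 276 in mutant retina, a ratio of 0.976. Pmvk, which was higher in the mutant library, made up 31.7 and 47.5 FPKM of these sums. The interval lay below 1 for 6 of the 14, near the 34.7% of all measured genes, and above 1 for 1, against 33.0%. In the second table the authors deposited, where the median of all measured genes was 0.05 higher, 10 of the 14 lay below 0, against 40.1% of all measured genes there, because Sqle (29.0 and 29.2 FPKM there) and Msmo1 (22.1 and 22.4) changed side.

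The early, mevalonate part of the pathway held the highest ratio of the class. Hmgcs1, whose product makes hydroxymethylglutaryl-CoA, was the most abundant of the 14, at 58.3 FPKM in control retina and 52.3 in mutant retina (ratio 0.898, 0.873 to 0.924), with 11.6% of its 50-base words also in another gene. Mevalonate kinase, Mvk, was nearly level at 18.9 and 19.8 FPKM. Pmvk, the phosphomevalonate kinase of the next step, had 31.7 FPKM in control retina and 47.5 in mutant retina (ratio 1.50, 1.41 to 1.60; chromosome 3, 89454541 to 89469013, plus strand, GRCm38). Pmvk was thus the 1 enzyme of the class that stood apart: 4.45% of measured genes had a higher log2 ratio. Both of its listed transcripts were higher in the mutant, NM_026784 at 29.8 and 43.7 FPKM and the minor NM_027348 at 1.92 and 3.83. Mvd, which decarboxylates the product of Pmvk, lay on the other side at 15.2 and 12.8 FPKM (ratio 0.839, 0.773 to 0.910). The consecutive kinase and decarboxylase steps therefore had ratios of 1.50 and 0.839 in the same pair of libraries.

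The isoprenoid steps were the least abundant part. Idi1, which isomerises isopentenyl diphosphate, had 2.15 and 1.97 FPKM, the lowest of the class. Fdps, the farnesyl diphosphate synthase, had 6.43 and 5.99. Both intervals held 1, and both genes share sequence with other loci: 25.3% of Idi1's and 26.2% of Fdps's 50-base words occur in transcripts of another gene, so their levels are less certain. Hmgcs1 exceeded Idi1 27.1-fold (control) and 26.6-fold (mutant), both per length of transcript, so the gap between these early steps was of like size in both libraries.

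The steps from squalene onwards lay close together and at or below the control. Fdft1, which makes squalene, had 24.0 FPKM in control retina and 19.8 in mutant retina (ratio 0.825, 0.789 to 0.862). Its exons overlap those of Ctsb on the opposite strand (102 and 93.8 FPKM), and the use of strand in counting is not stated in the labels. Of its 50-base words, 26.5% occur in transcripts of another gene, 17.2% in those of Ctsb, so its level is also less certain. Sqle, the squalene epoxidase and a rate-controlling enzyme, had 29.9 and 28.8 FPKM, with an interval that held 1. Lss, which closes the ring to lanosterol, had 13.1 and 10.8 (ratio 0.819, 0.777 to 0.864), the lowest ratio of the 14. The squalene steps thus ranged from nearly level to about 18.1% lower.

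The enzymes that turn lanosterol into cholesterol had ratios between 0.832 and 0.971. The demethylating enzymes Cyp51 (15.4 and 14.7 FPKM), Msmo1 (22.8 and 22.1) and Nsdhl (9.14 and 8.34) had intervals that held 1. Cyp51 overlaps exons of Akap9 (15.6 FPKM in control retina) on the opposite strand. The late enzymes differed slightly more: Sc5d, the desaturase of the sterol ring, had 13.3 and 11.1 FPKM (ratio 0.832, 0.791 to 0.877), and Dhcr7, which acts at the last reduction, had 22.8 and 20.4 (ratio 0.894, 0.849 to 0.940). Of the 2 sterol enzyme genes with the SREBP motif shown above, Hmgcs1 lay 10.2% below the control and Msmo1 2.90%, both inside the range of the class.

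The remaining sterol synthesis genes, from a list written for the pathway, also lay mostly below 0. Of 9, 6 lay below 0 (50% of all measured genes did) and 3 above. Their median log2 ratio was -0.17, and 0 passed 0.5 in either direction. 0610007P14Rik, 1 of the 2 most abundant genes of the list, had 38.0 FPKM in control retina and 42.4 in mutant retina.

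**Figure D2:**
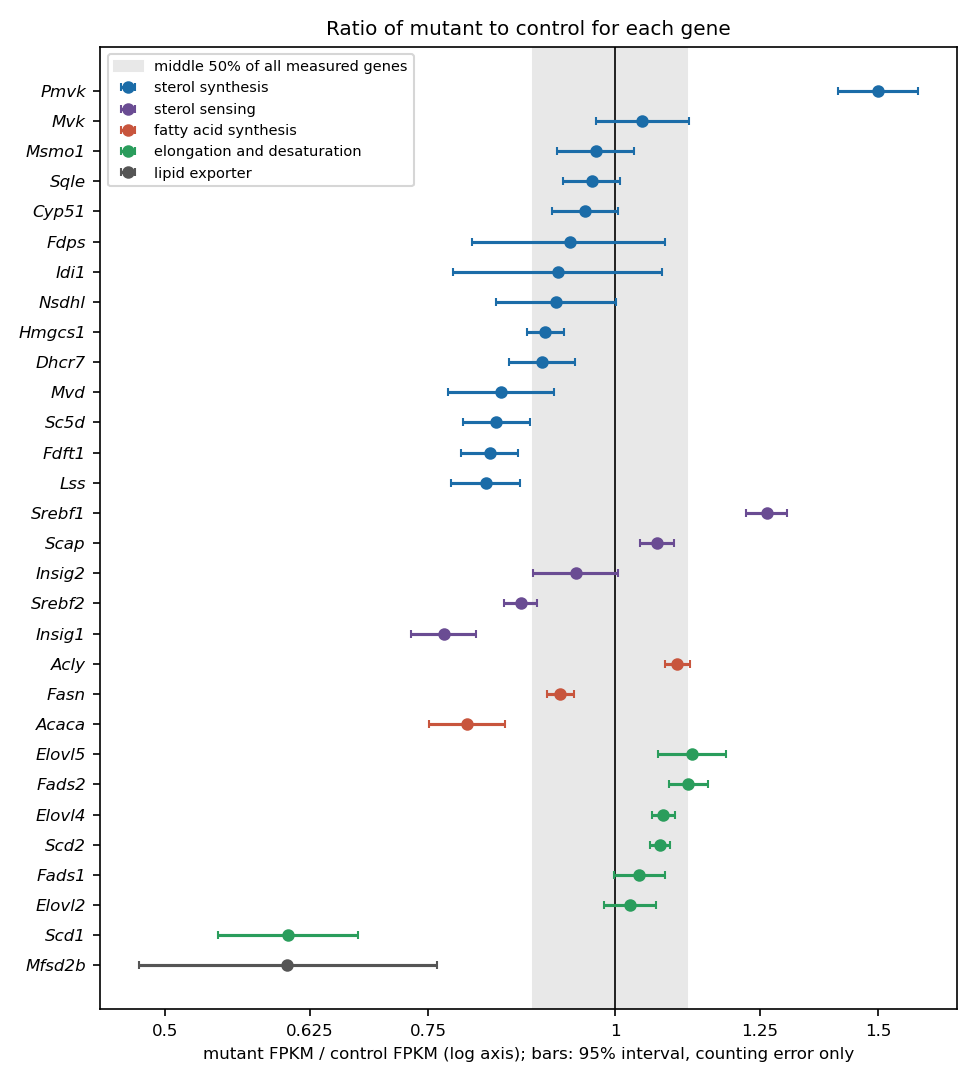
Mutant FPKM over control FPKM for each member (log axis), by class and sorted within it; bars are 95% intervals that cover counting error only, and the grey band holds the middle 50% of all measured genes (0.882 to 1.12). Pmvk at 1.50 and Srebf1 at 1.26 lie furthest to the right of the band. Scd1 and Mfsd2b, both at 0.604, lie furthest to its left. Elovl5 and Fads2 lie just beyond its right edge. Insig1, Acaca, Lss, Fdft1, Sc5d, Mvd and Srebf2 also lie to its left, at 0.768 to 0.865.

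The sterol sensing genes went both ways, and their 2 SREBP genes lay on opposite sides. Srebf2, which encodes the SREBP that mainly serves sterol synthesis, had 50.3 FPKM in control retina and 43.5 in mutant retina (ratio 0.865, 0.843 to 0.887). Srebf1, whose products mainly serve fatty acid synthesis, had 32.9 and 41.5 (ratio 1.26, 1.22 to 1.30; chromosome 11, 60199089 to 60222581, minus strand). Srebf2 thus exceeded Srebf1 1.53-fold (control) and 1.05-fold (mutant). Srebf1 overlaps exons of Rai1 (17.2 and 15.0 FPKM) on the opposite strand. The table lists 1 Srebf1 transcript, so its isoforms are not separated.

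Insig1, which retains SCAP and is itself induced by SREBPs, had 26.7 FPKM in control retina and 20.5 in mutant retina (ratio 0.768, 0.730 to 0.807; chromosome 5, 28071363 to 28078662, plus strand). This was the lowest ratio of the 19 genes of sterol synthesis and sensing, and 9.09% of measured genes had a ratio as low or lower. Its relative Insig2, which is controlled differently, had 19.1 and 17.9 FPKM, with an interval that held 1. Scap had 51.1 and 54.5 FPKM in sum, while its transcripts diverged: NM_001001144 had 37.2 and 43.4 and NM_001103162 had 13.8 and 11.1. Of the 5 sensing genes, 3 lay below 0, with a median of -0.08. The median was -0.02 with only the top transcript of each gene. It was -0.03 in the second table, where the median of all measured genes was 0.05.

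Other genes of SREBP processing differed little. Of 7, 1 lay below 0 and 6 above, with a median of 0.07 and 0 past 0.5 in either direction. The site-1 protease gene Mbtps1, which makes the first cut in SREBPs, had 41.2 and 41.3 FPKM.

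Fatty acid synthesis had 3 members and no common direction. Acly, which makes cytosolic acetyl-CoA from citrate, had 95.4 FPKM in control retina and 105 in mutant retina (ratio 1.10, 1.08 to 1.12). Acaca, the acetyl-CoA carboxylase of the committed step, had 5.54 and 4.41 (ratio 0.796, 0.751 to 0.844). Fasn, the synthase itself, had 36.3 and 33.3 (ratio 0.919, 0.900 to 0.939). The class median was -0.12 with 2 of 3 below 0. It was 0.01 without Acaca, of whose 50-base words 30.4% occur in transcripts of another gene, nearly all of them a gene listed as Gm5182. In sum the class had 137 FPKM in control retina and 143 in mutant retina, most of it from Acly.

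Genes that supply or activate fatty acids were also near level as a list. Of 12, 5 lay below 0 and 7 above, with a median of 0.05; 1 passed 0.5 upwards and 0 downwards. That gene was Acacb, the mitochondrial carboxylase whose product restrains fatty acid oxidation, at 0.621 and 1.36 FPKM. The acyl-CoA synthetase gene Acsl3 had 120 and 159 FPKM (ratio 1.32, 1.30 to 1.35), and Acsl6, which favours docosahexaenoic acid, had 90.4 and 84.2.

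**Figure D3:**
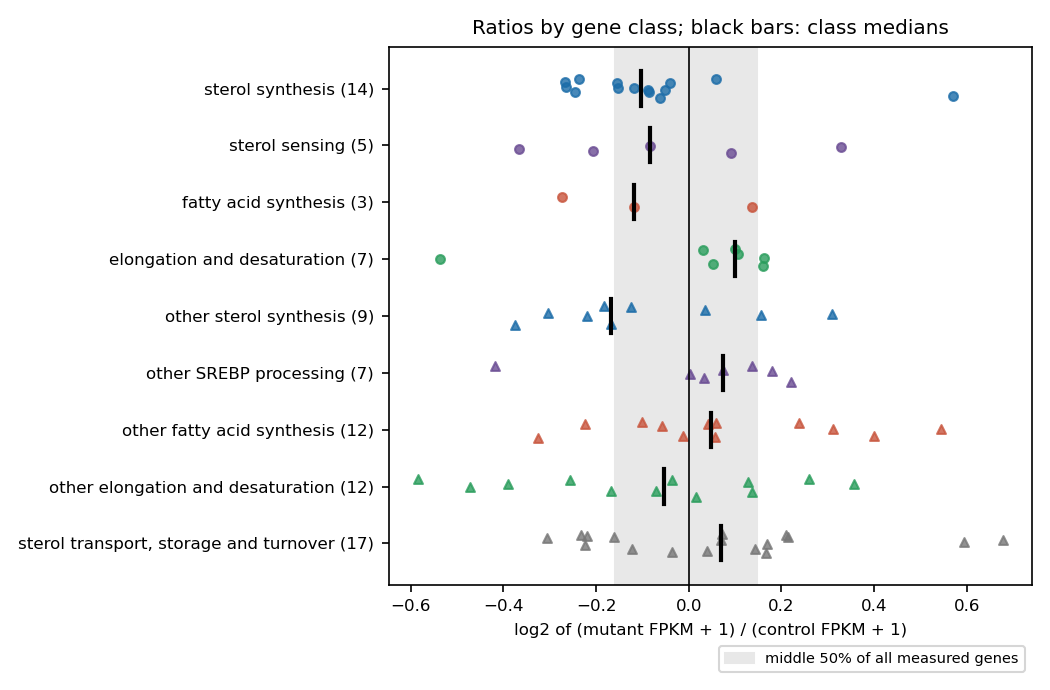
Log2 of (mutant FPKM + 1) over (control FPKM + 1) for the 4 member classes (circles) and 5 further pathway lists (triangles), with the number of measured genes in brackets, black bars at the medians and a grey band over the middle 50% of all measured genes. The medians run from -0.17 for the other sterol synthesis genes to 0.10 for elongation and desaturation, and the classes overlap.

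Elongation and desaturation members were slightly higher in the mutant library, with 1 exception. Of 7, 6 had a log2 ratio above 0, where 6640 of the 13280 measured genes did, with a class median of 0.10. The FPKM of the 7 summed to 407 in control and 437 in mutant retina. The median in the second table was 0.16, where that of all measured genes was 0.05. The interval lay above 1 for 4 of the 7, where it did for 33.0% of measured genes, and below 1 for 1, Scd1, where it did for 34.7%. These 6 ratios ran from 1.02 to 1.13, a spread that lies almost wholly inside the middle 50% of all measured genes.

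Elovl4, which makes the very long chains of photoreceptor membranes, was the most abundant of all 30 members, at 169 FPKM in control retina and 182 in mutant retina (ratio 1.08, 1.06 to 1.10; chromosome 9, 83778692 to 83806277, minus strand). Elovl2, which acts on the precursors of docosahexaenoic acid, had 24.9 and 25.5, and Elovl5, which acts earlier on polyunsaturated chains, had 19.6 and 22.1 (ratio 1.13, 1.07 to 1.19). Per length of transcript, Elovl4 exceeded Elovl2 6.80-fold (control) and 7.16-fold (mutant). Of the desaturases that work between these steps, Fads1 had 28.5 and 29.6 FPKM (ratio 1.04, 0.998 to 1.08) and Fads2 had 53.1 and 59.4 (ratio 1.12, 1.09 to 1.15). The order Elovl4, Fads2, Fads1, Elovl2 and Elovl5, from the highest level to the lowest, was the same in both libraries.

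The 2 stearoyl-CoA desaturases, which make monounsaturated chains, differed in level and in direction. Scd2, the main form in neural tissue, had 108 FPKM in control retina and 116 in mutant retina (ratio 1.07, 1.06 to 1.09). Scd1, the main form in liver and fat, had 3.63 and 2.19 (ratio 0.604, 0.543 to 0.673; chromosome 19, 44394455 to 44407879, minus strand). Scd2 thus exceeded Scd1 29.8-fold (control) and 52.9-fold (mutant). Scd1 had the lowest log2 ratio of the 30 members, -0.54, and 3.98% of measured genes had one as low or lower. It no longer passed 0.5 with a pseudocount of 5 FPKM. Nor did it in the second table (-0.49), where the median of all measured genes was 0.05. The 2 genes are related and lie on chromosome 19, but few of their 50-base words occur in another gene. The share was 4.56% for Scd1, led by Scd3 (3.42%), and 3.97% for Scd2, led by Scd1 (2.66%).

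The other elongation and desaturation genes had no common direction. Of 12 measured, 7 lay below 0 and 5 above, with a median of -0.05; 0 passed 0.5 upwards and 1 downwards. That gene was Elovl6, an SREBP1 target that lengthens palmitate, at 18.8 and 12.2 FPKM (ratio 0.649, 0.623 to 0.677). Tecr, the enoyl reductase of the elongation cycle, had 147 and 148 FPKM, and Ptplad1 (now named Hacd3), a dehydratase of that cycle, had 83.0 and 81.0.

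Mfsd2b, which encodes an exporter of sphingosine 1-phosphate known from red blood cells and platelets, was the least abundant member, at 1.65 FPKM in control retina and 0.999 in mutant retina (ratio 0.604, 0.480 to 0.761). About 188 control and 131 mutant fragments lay behind it. Its log2 ratio was -0.41, or -0.68 with a pseudocount of 0.1 FPKM, since the pseudocount of 1 shrinks the ratios of low genes. Of 8 red cell markers, 3 were measured, all of them globin genes, and they went opposite ways: Hba-a1 was higher in mutant retina at 9.56 FPKM (ratio 3.19, 2.49 to 4.14), its near-identical copy Hba-a2 had 9.38 FPKM in control and 0.00990 in mutant retina, and Hbb-b1 had 4.12 and 3.18. They summed to 16.5 and 12.8 FPKM, and their part in the Mfsd2b value was not tested.

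Isoform use differed little. Of 6 members listed with more than 1 transcript, 0 had a transcript whose share differed by at least 30 points between the libraries, where 0.909% of such genes did. The largest difference was 8.31 points, in Fdps, whose minor transcript NM_001253751 made up 13.4% of its FPKM in control and 21.7% in mutant retina. The split between transcripts of 1 gene is an estimate by the authors' software and depends on few distinguishing fragments.

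**Figure D4:**
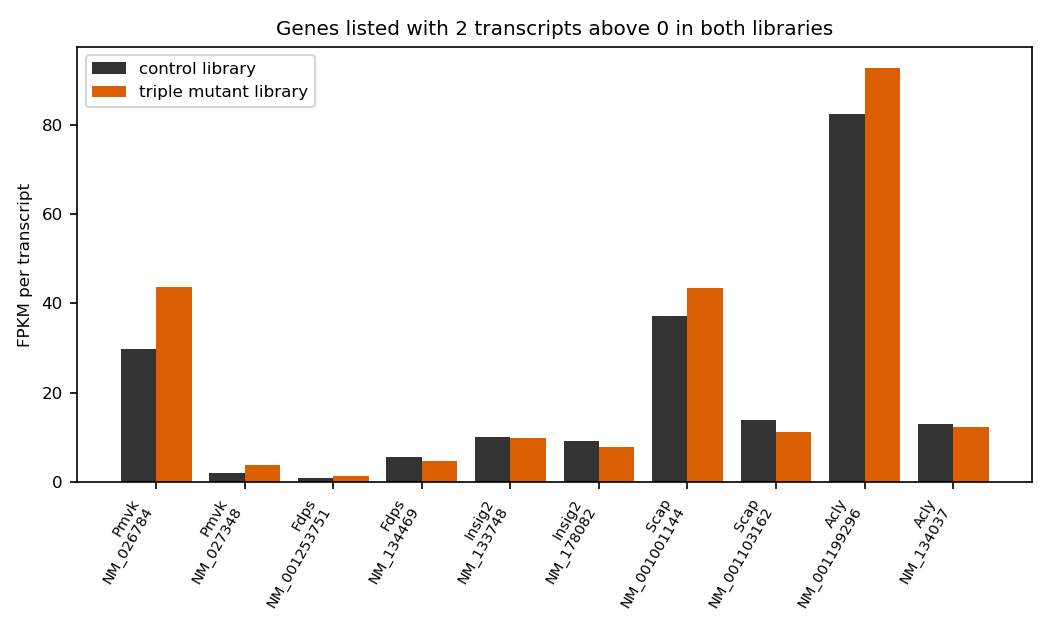
FPKM of each transcript in the control library (dark bars) and the triple mutant library (orange bars), for the members listed with 2 transcripts above 0 in both. Both Pmvk transcripts are higher in the mutant, whereas the 2 transcripts of Scap, Fdps and Acly go opposite ways.

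Genes that move, store or break down cholesterol were looked at beside its synthesis. Of 17 measured, 7 lay below 0 and 10 above, with a median of 0.07. At a size of 0.5, 2 passed upwards (5.37% of measured genes did) and 0 downwards (4.74% did). Apoe, the apolipoprotein with which glia export cholesterol, had 655 FPKM in control retina and 988 in mutant retina (ratio 1.51, 1.49 to 1.53). Cyp27a1, a mitochondrial sterol hydroxylase that eliminates cholesterol, had 1.05 and 2.28 (ratio 2.17, 1.69 to 2.80). The lipoprotein receptor gene Scarb1 had 73.3 and 81.0.

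Several marker lists of other cells differed strongly between the libraries. Pigment epithelium markers were lower in 7 of 7 measured (8 listed), summing to 132 FPKM in control and 6.62 in mutant retina. Lens markers were lower in 6 of 6 measured (8 listed), summing to 163 and 5.72. Lim2, below 1 FPKM in both libraries (0.409 and 0), was not among these 6. Microglia and macrophage markers were higher in 8 of 8, summing to 26.8 and 126 FPKM; Apoe and Cyp27a1 are also expressed by macrophages. Photoreceptor markers lay below 0 in 8 of 9 (11993 and 10115 FPKM in sum), and Mueller glia markers in 3 of 10 (2158 and 1972), with Glul at 952 and 561 but Slc1a3 at 75.6 and 122. The part of these differences in the ratios above was not tested. In bulk tissue, fewer cells of a type and less RNA per cell cannot be told apart.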

How the data were processed

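RNA from dissected retinas was sequenced in 1 control and 1 triple mutant library, grouped by the genotype labels. The submitters' processing notes name TopHat2 2.0.8, Cuffdiff 2.1.1 and the build mm10; the annotation, the use of strand and the read layout are not given in the sources used. Per the file headers, the authors deposited an estimated FPKM of each library for every RefSeq transcript, beside a log2 fold change and the p-value and q-value of their own comparison. Of the 2 deposited tables, the one with gene symbols (30608 rows) was used and the other (33362 rows) served as an alternative.

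Transcripts of a symbol were summed (Python 3.11.15, pandas 2.3.3). Genes entered where Cuffdiff completed at least 1 transcript and failed on none (15318 genes), and measured at 1 FPKM or more in either library. Log2 ratios used a pseudocount of 1 FPKM. With 1 library per group no p-value was computed. Fragments were recovered from the steps of low FPKM values in single-transcript genes of at least 3000 bases, assuming fragments of 150 bases; within 10% of a step, 75.4% (control) and 69.7% (mutant) of the low values were whole multiples. Intervals of 95% are exact conditional binomial intervals (scipy 1.17.1). The steps were tested on simulated data. Shared sequence was measured as 50-base words in GENCODE M21 transcripts; coordinates are from GENCODE M21 on GRCm38, the assembly that mm10 denotes.

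All 30 members were named; of each further list, genes past 0.5 (at most 4) and the 2 most abundant were named, except that some named by this rule are not reported here. The members and lists were chosen with earlier results of these data known.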

Additional observations from a re-analysis of the deposited data

How the results depend on the processing

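The alternatives were pseudocounts of 0.1 and 5 FPKM, centring on the median gene, equal summed FPKM, only the top transcript, the second table, no filter or one of 5 FPKM, and, added after the data were seen, exact symbols only and leaving out members with at least 10% of their sequence in another gene. No member passed a log2 ratio of 1 in either direction under any of them. The count of members at or below -0.5 (1) became 2 with a pseudocount of 0.1 and 0 with a pseudocount of 5, in the second table or among genes of at least 5 FPKM. The sensing median of -0.08 became -0.0170 with the top transcript and -0.0251 in the second table. There the fatty acid synthesis median was -0.0588 and the elongation and desaturation median 0.16. The median of all measured genes in that table was 0.0544, so values there sit higher as a whole. Without members that share sequence, the fatty acid synthesis median was 0.00974 with 1 of the 2 left below 0. With 5 FPKM required, Scd1 left and 0 elongation and desaturation members lay below 0. The sterol synthesis count below 0 was 10 in the second table and 8 of 10 without members that share sequence. Sqle and Msmo1 were the only members whose sign changed under the alternatives run, in the second table. No paired analysis was possible because each group has 1 library. Depth limits Mfsd2b, Idi1 and Fdps most.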

Other observations

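Genes of docosahexaenoic acid transport and of sphingosine 1-phosphate, the lipid that Mfsd2b exports, were listed with earlier results of these data known. Their median absolute log2 ratio was 0.32, against 0.15 over all measured genes and 0.14 for the 30 genes above. Of 11 measured, 7 lay above 0 and 4 below, with a median log2 ratio of 0.07. At a size of 0.5, 2 passed upwards (5.37% of measured genes did) and 2 downwards (4.74% did). Sphk1, a kinase that makes sphingosine 1-phosphate, had 6.42 FPKM in control retina and 9.71 in mutant retina (ratio 1.51, 1.38 to 1.67), and its receptor gene S1pr3 had 11.4 and 17.0 (ratio 1.49, 1.42 to 1.57). The receptor gene S1pr1 was nearly level, at 15.9 and 16.8.

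Of the transport genes named here, Mfsd2a, Fabp7 and Adipor1 were lower in the mutant library, and Fabp5 was nearly level. Mfsd2a, which carries lysophospholipid-bound docosahexaenoic acid across the blood-retina barrier and into pigment epithelium, had 5.68 and 3.60 FPKM (ratio 0.634, 0.557 to 0.723), and the fatty acid binding protein gene Fabp7 had 15.2 and 10.2 (ratio 0.673, 0.587 to 0.773). Adipor1, whose loss is known to lower retinal docosahexaenoic acid, had 218 and 196 FPKM (ratio 0.903, 0.889 to 0.917). An interval wholly below 1 was seen for 34.7% of measured genes. Fabp5, another fatty acid binding protein gene, named after its values were seen, had 10.6 and 11.0 FPKM (ratio 1.04, 0.919 to 1.19). Vascular markers lay below 0 in 7 of 8 measured, summing to 162 and 144 FPKM, and pigment epithelium markers in 7 of 7; their part in the Mfsd2a value was not tested.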
